A study of Bos indicus with 55 samples.

Results

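The miR-34 and miR-449 family was taken by name from the microRNA (miRNA) count table of conceptus extracellular vesicles (EVs, membrane particles that cells release). The members were the entries bta-miR-34a, bta-miR-34b, bta-miR-34c, bta-miR-449a, bta-miR-449b and bta-miR-449c, which are 6 of 1024 entries in the table. All 6 had a count in at least 1 of the 28 libraries, as did 655 entries in all. A further entry of the name, miR-449d, was listed at 0 in every library and is not counted here. After a filter on low counts, 2 members, miR-34c and miR-449a, stayed among the 240 entries tested. A conceptus is the embryo together with its developing membranes, and each gave EVs over 6 h of culture on day 16 of pregnancy.

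Conceptuses had been made by nuclear transfer (7 male, 5 female), a cloning method that puts a donor cell's nucleus into an emptied egg, or by in vitro fertilisation (IVF; 3 male, 7 female), or had been conceived in vivo after artificial insemination (3 male, 3 female). Each library came from a different animal. By organism label the libraries are Bos indicus, whereas the design text puts the conceptuses in Bos taurus taurus. The source of the donor nuclei is not given in the sources used here, so a donor line and the sex of a nuclear transfer conceptus cannot be told apart. EV totals ran from 39.3 k to 603.6 k counts, with a median of 120.7 k (k, kilo). Entries miR-2887 and miR-2904 together held from 4.11% to 76.3% of a library, and these shares are given beside the results they touch. Of the marker lists, 5 of 5 miRNAs of epithelia were found, and their summed level ran from 5862 to 103114 CPM over the 28 libraries. The lists of early embryonic cells (6 of 6), blood cells (6 of 6) and muscle (4 of 4) were also found in full. Their sums reached 12460, 4712 and 16896 CPM. Of the neuronal list, 2 of 3 were found.

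MicroRNAs are short RNAs that pair with messenger RNAs, mainly through the bases near their 5′ end called the seed, and lower the output of those messengers. The miR-34 and miR-449 groups are known to share a seed and so to share many targets, among them drivers of the cell cycle and Notch pathway genes. In human and mouse, miR-34a has a transcript of its own, miR-34b and miR-34c are cut from a common transcript, and both transcripts are activated by p53. In human and mouse the miR-449 genes lie together within an intron of CDC20B. Both groups are known from multiciliated epithelia such as airway and oviduct, where in mice they are needed for motile cilia to form, and miR-34c is also abundant in testis and sperm.

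The family was carried in these EVs almost wholly by miR-34c. It held 5295 of the family's 5656 counts, or 93.6% (95% exact binomial interval 92.9 to 94.2%, counting error only). The family as a whole was 0.140% of all counts. By mean level miR-34c ranked 57th among the 655 entries with a count. The next members were miR-449a (180 counts, 20 libraries), miR-34a (109 counts, 24 libraries) and miR-34b (59 counts, 13 libraries), at ranks 222, 236 and 267. The rarest were miR-449c, with 7 counts over 4 libraries, and miR-449b, with 6 counts over 3 libraries. Library by library, the share of miR-34c ran from 56.25% in nuclear transfer male replicate 1 to 100% in 2 libraries. Although miR-34b and miR-34c are known to be cut from a common transcript, miR-34b made up 1.10% of the counts of the pair (95% exact binomial interval 0.840 to 1.42%). Small RNA libraries are known to capture different miRNAs with unequal efficiency, so a ratio between members is a ratio of counts.

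Levels of miR-34c are given as CPM (counts of an entry per M, mega, counts of the library) scaled by TMM, a factor per library that evens out composition. In nuclear transfer males they ran from 88.6 to 1237 CPM with a median of 493.2. In nuclear transfer females they were 2848, 1730, 1733, 1893 and 2233 CPM. All 7 males thus lay below all 5 females, an order that 10 of the 240 tested entries showed (4.17%). On this scale, 6 entries (2.5%) had every nuclear transfer male above every female. In IVF males miR-34c stood at 176, 493.2 and 950 CPM. IVF females spread from 235 to 2511 CPM around a median of 1367, and the sexes overlapped. The in vivo males were close together at 1407, 1353 and 1444 CPM, inside the span of the in vivo females at 725, 2424 and 1534 CPM.

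**Figure D1:**
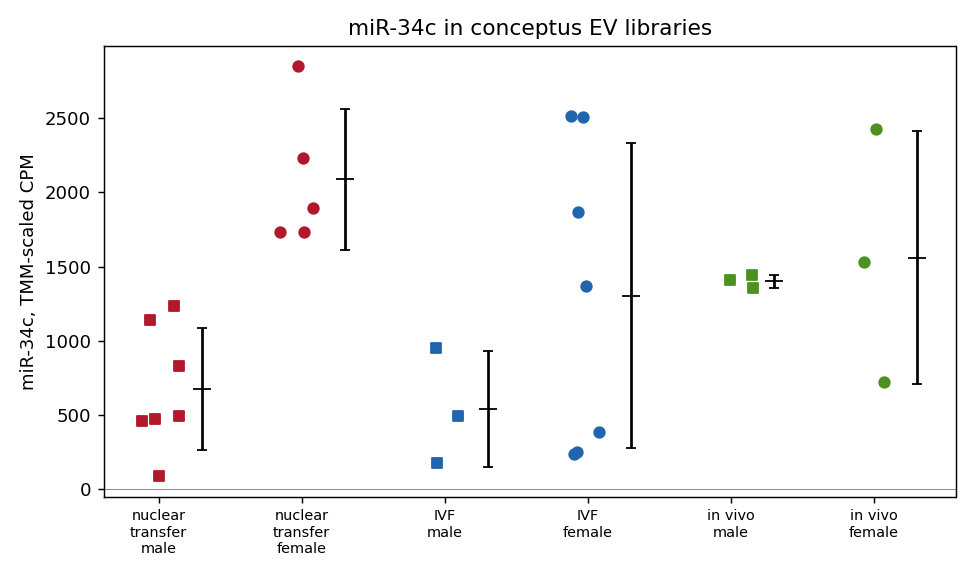
Each point is the level of miR-34c in 1 EV library (TMM-scaled CPM, vertical axis) by conceptus type and sex. Black marks are the group mean with 1 SD. The 7 nuclear transfer males (88.6 to 1237 CPM) all lie below the 5 nuclear transfer females (1730 to 2848 CPM), while the sexes overlap in IVF and in vivo.

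As means with SD, miR-34c stood at 675 ± 411 CPM in nuclear transfer males (n = 7) and 2087 ± 472 in nuclear transfer females (n = 5). IVF males had 540 ± 389 (n = 3) and IVF females 1304 ± 1026 (n = 7). In vivo males had 1401 ± 45.4 (n = 3) and in vivo females 1561 ± 850 (n = 3). In order of the means, nuclear transfer females came first, then in vivo females, in vivo males, IVF females, nuclear transfer males and IVF males. All 5 pairs of neighbours in this order overlapped, and no gap exceeded the larger SD of its pair. Scaled by the library total alone, in vivo females came first with 2283 ± 1372 CPM, and nuclear transfer males and females overlapped, the highest male at 1639 CPM and the lowest female at 1531.

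Between conceptus types miR-34c did not pass the test. The mean was 1264 ± 838 CPM in nuclear transfer (SD, n = 12) and 1481 ± 545 in vivo (n = 6), and a log2 difference of -0.32 was fitted (SE 0.50, adjusted p = 0.756 by edgeR). Of all entries tested in that comparison, 0.417% were called. With the share of miR-2887 and miR-2904 as a covariate, a fit added after seeing the data, this difference turned to 0.15. For IVF, with a mean of 1075 ± 934 CPM (n = 10), IVF minus in vivo came to -0.82 (SE 0.54, adjusted p = 0.454 by edgeR). That comparison had 0% of entries called by edgeR, 39 of 240 at an unadjusted p under 0.05, and 13 called by DESeq2, with neither member among the 13. The covariate took this difference to -0.27, and leaving out 1 library gave from -1.18 to -0.47. The median share of miR-2887 and miR-2904 was 41.4% in nuclear transfer, 55.3% in IVF and 21.1% in vivo, and its part in these differences was not tested. Nuclear transfer set against IVF gave 0.50 (SE 0.47, adjusted p = 0.704 by edgeR), in a comparison with 1.25% called.

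Over all types, the mean of the 3 male minus female differences of miR-34c was a log2 value of -1.02 (SE 0.42, unadjusted p = 0.0229, adjusted p = 0.694 by edgeR). It was the 4th smallest p of the 240 entries, of which 0% were called by edgeR or DESeq2 and 9 had an unadjusted p under 0.05. Within nuclear transfer the difference was -1.45 (SE 0.55, unadjusted p = 0.0167, adjusted p = 0.0668 by edgeR), just outside the threshold of 0.05. In that fit 22.2% of 180 entries were called, 8.89% as lower in males, and miR-34c ranked 44th by p. DESeq2 put the same difference past the threshold (adjusted p = 0.0333), along with 28.9% of entries, 12.2% as lower in males. Leaving out 1 library at a time gave from -1.77 to -1.21, and edgeR called it without nuclear transfer male replicate 2, male replicate 7 or female replicate 2.

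Within IVF the male minus female difference of miR-34c was -1.37 (SE 0.94, adjusted p = 1.00 by edgeR). Within in vivo it was -0.18 (SE 0.78, adjusted p = 0.999 by edgeR), and 0.23 without in vivo female replicate 2. Both fits had 0% of entries called by edgeR and 0 by DESeq2, with 1 of 200 and 0 of 154 entries at an unadjusted p under 0.05. Whether the sex difference depended on conceptus type was tested directly. For miR-34c this interaction had an adjusted p of 0.682 by edgeR (unadjusted 0.367), so a difference between the types was not shown.

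The most abundant miR-449 member, miR-449a, had few counts and spread widely between groups. It had from 0 to 46.2 CPM in nuclear transfer males, with a median of 11.1 and at most 6 counts in a library. Nuclear transfer females had 108, 148, 84.4, 177 and 91.1 CPM, from 8 to 45 counts each. The sexes did not overlap, on this scale or on that of the library total, where the highest male had 43.5 CPM and the lowest female 74.6. On the scale of the library total, 3 of 240 entries (1.25%) had every male below every female and 7 (2.92%) every male above. IVF males had 26.0 CPM in 1 library and 0 in 2, and IVF females ran from 0 to 111 CPM with a median of 45.4. In vivo males had 38.7, 0 and 46.9 CPM, whereas in vivo females had 14.5 CPM in 1 library and 0 in 2.

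As means, miR-449a was at 14.6 ± 14.9 CPM in nuclear transfer males (SD, n = 7) and 122 ± 39.8 in nuclear transfer females (n = 5). IVF males had 8.65 ± 14.99 (n = 3) and IVF females 41.1 ± 38.1 (n = 7). In vivo males had 28.5 ± 25.1 (n = 3) and in vivo females 4.84 ± 8.38 (n = 3). The gap between nuclear transfer females and the next group, IVF females, was 80.8 CPM and larger than the SD of both. Their ranges still overlapped, with the highest IVF female at 111 CPM and the lowest nuclear transfer female at 84.4. Every other gap between neighbours in the order of means was smaller than the larger SD of its pair. Pooled over libraries, nuclear transfer males had 1.42 counts of miR-449a per 100 k (95% exact Poisson interval 0.776 to 2.38) and nuclear transfer females 9.76 (7.88 to 12.0). These intervals cover counting error only.

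Between conceptus types miR-449a did not pass the test either. The log2 difference of nuclear transfer from in vivo was 1.59 (SE 0.83, adjusted p = 0.392 by edgeR), that of IVF from in vivo 0.46 (SE 0.95, adjusted p = 0.861) and that of nuclear transfer from IVF 1.13 (SE 0.76, adjusted p = 0.574). Without IVF male replicate 2, the only IVF male with a count, IVF minus in vivo turned to -1.29 and nuclear transfer minus IVF became 2.81. Without in vivo female replicate 2, the only in vivo female with a count, nuclear transfer minus in vivo became 3.01 and IVF minus in vivo 1.95. The mean male minus female difference was -0.98 (SE 0.73, adjusted p = 0.743 by edgeR). It was -2.02 without IVF male replicate 2 and -0.0031 without in vivo female replicate 2. For the dependence of the sex difference on type, miR-449a had the 6th smallest p of 240 entries (unadjusted 0.0111) but did not pass after adjustment (adjusted p = 0.315 by edgeR). No entry passed for that interaction by edgeR, where 35 had an unadjusted p under 0.05 and 0% were called, nor by DESeq2.

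In the fit of nuclear transfer libraries alone, miR-449a fell under the count filter. Its male minus female difference was therefore read from the fit of all 28 libraries, a choice made after seeing the data. The filter of that fit asks for 82.8 CPM of the library total in at least 3 libraries, which 5 libraries reached, 4 of them nuclear transfer females, 1 an IVF female and 0 nuclear transfer males. So miR-449a entered the fit through the group where it was high, and its p there is a description, not independent support. The male minus female difference within nuclear transfer was a log2 value of -2.95 (SE 0.84, adjusted p = 0.0373 by edgeR), in a contrast where 8.33% of 240 entries were called and 5.42% as lower. The same fit gave -2.25 within IVF (SE 1.25, adjusted p = 1.00 by edgeR) and 2.28 within in vivo (SE 1.36, adjusted p = 0.995). The nuclear transfer difference also passed by DESeq2 on the same entries (adjusted p = 0.0117) and by edgeR on the nuclear transfer libraries alone without a filter (-2.82, adjusted p = 0.0120, 10.9% of 580 entries called, 3.45% as lower). The other alternatives, among them the fit of 28 libraries without a filter (0.0545), gave adjusted p from 0.0533 to 0.147 by edgeR. With 1 library left out it passed in 9 of 28 fits, those without nuclear transfer male replicates 4 or 7, female replicate 5, IVF male replicate 3, IVF female replicates 1, 2 or 7, or in vivo male replicates 1 or 2, and the difference ran from -3.56 to -2.60.

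**Figure D2:**
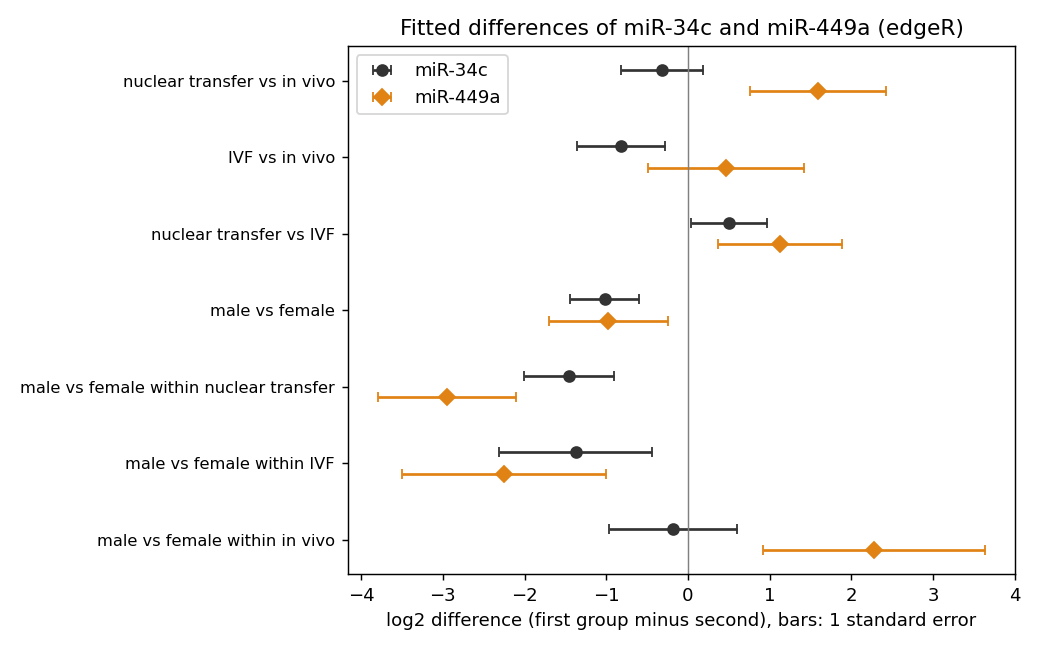
Points are fitted log2 differences (first group minus second) of miR-34c and miR-449a, and bars are 1 standard error. For miR-449a the 3 differences within a type come from the fit of 28 libraries, and for miR-34c from the libraries of that type. The difference farthest from 0 is that of miR-449a between nuclear transfer males and females (-2.95), and the bars of miR-34c cross or come near 0 between types.

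Members under the filter are described by counts. For miR-34a, the member with its own p53-activated transcript, nuclear transfer males had from 7.28 to 72.0 CPM (median 39.4), and nuclear transfer females had 0, 24.7, 13.1, 29.6 and 27.3 CPM. Pooled, that was 3.75 counts per 100 k in males (95% exact Poisson interval 2.64 to 5.17) and 1.57 in females (0.881 to 2.60). The unfiltered nuclear transfer fit gave a log2 difference of 1.16 (SE 0.93, adjusted p = 0.415 by edgeR), so this member did not pass and its direction was opposite to that of miR-34c. IVF males had 55.7, 38.9 and 45.2 CPM, and IVF females ran from 0 to 107.3. In vivo males had 38.7, 16.9 and 0 CPM. In vivo females had 0, 7.26 and 111 CPM, so that 1 library carried 10 of that group's 11 counts.

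The makeup of the family is given from pooled counts. Of the family's counts, miR-34a made up 4.93% in nuclear transfer males (95% exact binomial interval 3.50 to 6.74%) and 0.811% in nuclear transfer females (0.454 to 1.33%). It made up 8.89% in IVF males (4.68 to 15.01%) and 1.85% in IVF females (1.25 to 2.63%). In vivo it made up 0.531% in males (0.145 to 1.35%) and 2.00% in females (1.00 to 3.56%), intervals that overlap. Without in vivo female replicate 3 the share in females was 0.249%, on the other side of the males. The male share also leaned on 1 library. In vivo male replicate 3 held 523 of that group's 712 counts of miR-34c and 0 of its 4 counts of miR-34a. Likewise, IVF female replicate 3 held 16 of the 30 counts of miR-34a in IVF females. These shares pool libraries and have no test across animals.

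The partner of miR-34c, miR-34b, was found in 4 of 7 nuclear transfer males, at up to 19.7 CPM, and in 3 of 5 nuclear transfer females, at 173, 11.3 and 54.7 CPM. Pooled, this came to 0.609 counts per 100 k in males (95% exact Poisson interval 0.223 to 1.32) and 2.73 in females (1.78 to 4.00), of which nuclear transfer female replicate 2 gave 14 of 26 counts. The unfiltered fit put the log2 difference at -2.54 (SE 1.00, adjusted p = 0.0742 by edgeR), which did not pass. In IVF it was found in 1 of 3 males (13.0 CPM) and 3 of 7 females (3.80 to 60.4 CPM). In vivo males had 0, 135 and 11.0 CPM. In vivo females had 0 of 237930 counts, with a 95% exact Poisson interval reaching 1.55 per 100 k.

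The rare miR-449b and miR-449c were not seen in any nuclear transfer male, IVF male or in vivo female, and their counts cannot show a difference at this depth. For each, the count of 0 in nuclear transfer males has a 95% exact Poisson interval reaching 0.374 per 100 k. In nuclear transfer females, miR-449b had 2 counts in 1 library and miR-449c 1 count in each of 2. IVF female replicate 3 had 2 counts of miR-449b, and IVF female replicate 7 had 2 of miR-449c. In vivo male replicate 3 held 2 counts of miR-449b and 3 of miR-449c.

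**Figure D3:**
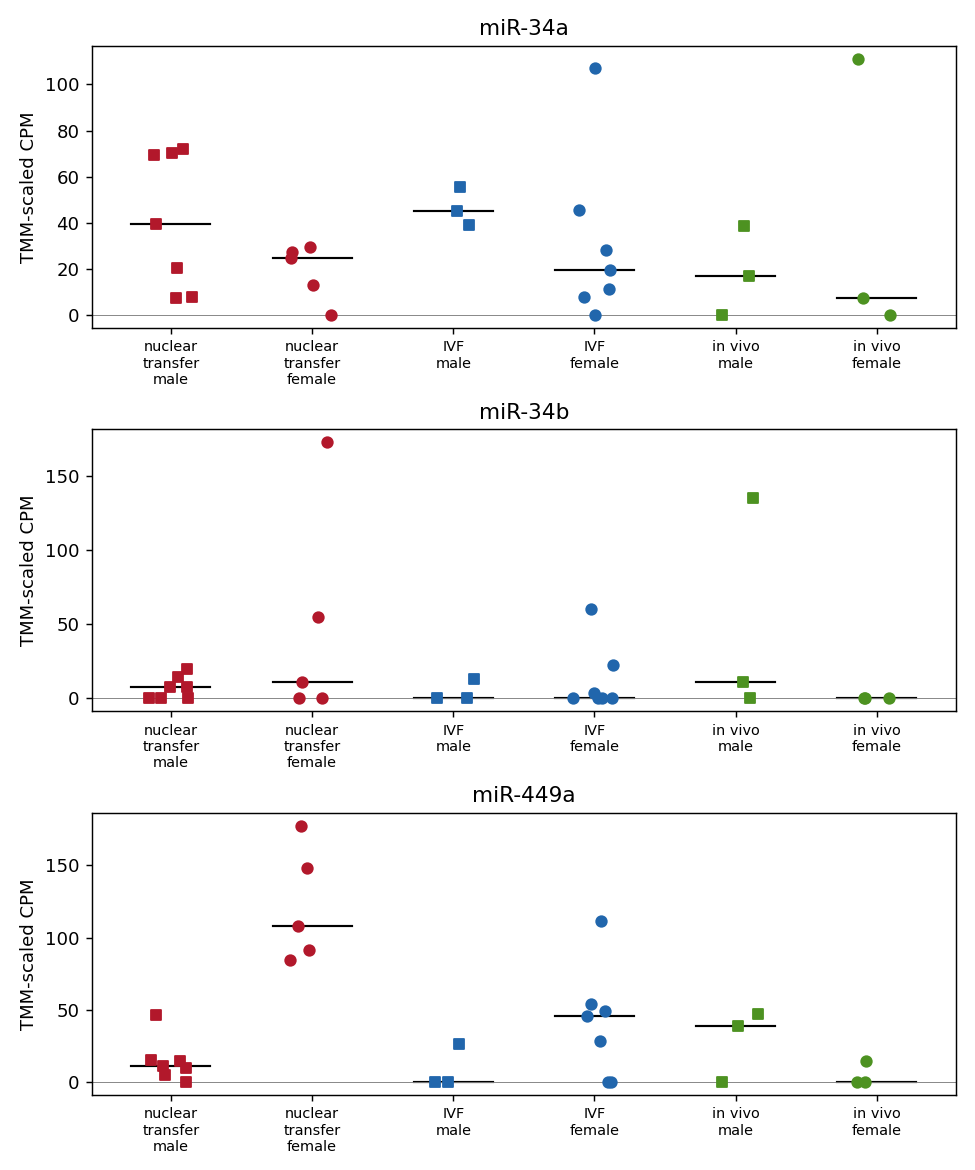
Each point is 1 EV library and each panel 1 member (TMM-scaled CPM, vertical axis), by conceptus type and sex. Black lines are group medians. Nuclear transfer females carry miR-449a at 84.4 to 177 CPM above all nuclear transfer males (0 to 46.2), while miR-34a overlaps between the sexes and miR-34b is at 0 in many libraries.

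Levels of miR-34c ran lower in libraries with more miR-2887 and miR-2904. Across the 28 libraries, Pearson's r of log2 CPM with that share was -0.74 for miR-34c, and 7.08% of the tested entries had a lower r. It was -0.68 within nuclear transfer (n = 12), -0.78 within IVF (n = 10) and -0.52 within in vivo (n = 6). For miR-449a it was -0.36 over 28 libraries and -0.61 within nuclear transfer. These are descriptions over libraries that share groups, scaling and composition. The share itself was 30.3 to 59.4% in nuclear transfer males and 5.17 to 44.5% in nuclear transfer females. With the share as a covariate, the fit of nuclear transfer libraries alone gave miR-34c a sex difference of -1.26 (SE 0.61, adjusted p = 0.544 by edgeR). In that fit the calls fell to 1 of 180 entries, against 40 without the covariate. For miR-449a, which was not among those 180, the fit of 28 libraries with the covariate gave -2.50 within nuclear transfer (SE 0.88, adjusted p = 0.147 by edgeR). What part the share has in either difference was not tested.

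**Figure D4:**
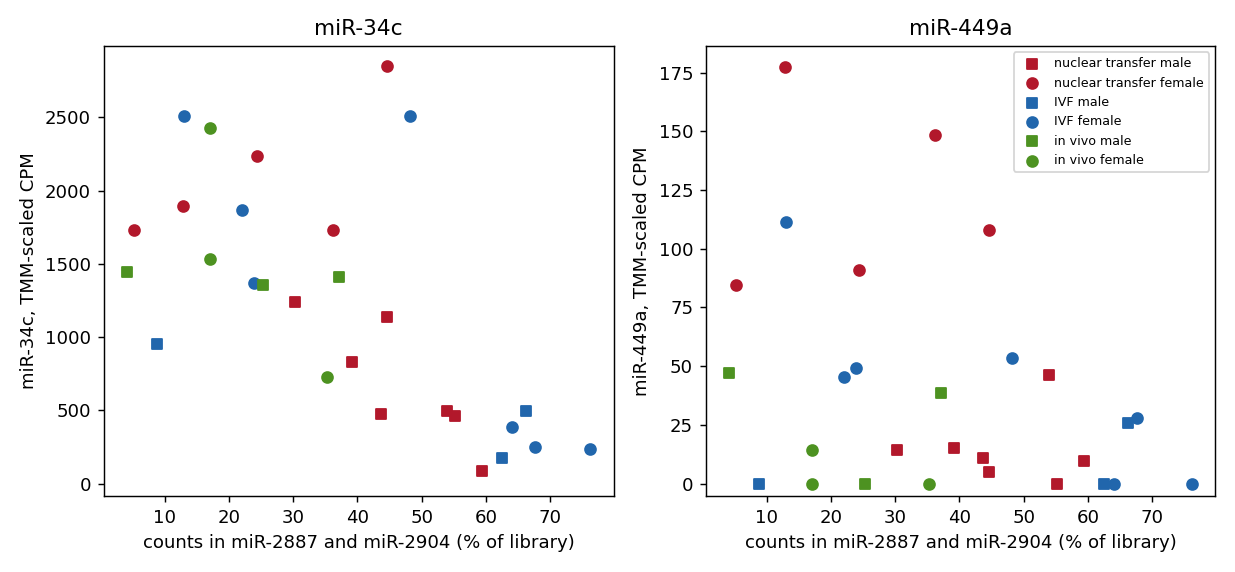
The level of miR-34c (left) and miR-449a (right), in TMM-scaled CPM, is plotted against the percent of a library's counts in miR-2887 and miR-2904. Each point is 1 of 28 libraries. Levels of miR-34c are lower at high shares (r of log2 levels -0.74), and nuclear transfer males lie at shares of 30.3 to 59.4%.

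Markers of other kinds of cell were compared between the sexes within nuclear transfer, where 22.2% of all entries were called. The miR-200 list of epithelia summed to 6840 to 32312 CPM in nuclear transfer males and 16363 to 103114 in nuclear transfer females, which overlap. Of its 5 tested members 1, miR-200c, was called (-1.93, SE 0.52, adjusted p = 0.0201 by edgeR), and 4 did not pass. The list of early embryonic cells (miR-302 and its companions, and miR-371) summed to 423 to 7784 CPM in nuclear transfer males and 140.6 to 1088 in nuclear transfer females, which also overlap. Of its 4 tested members, 3 were called higher in males by edgeR and 4 by DESeq2, which called 28.9% of all entries. Among them miR-371 averaged 222.4 CPM in nuclear transfer males and 17.8 in nuclear transfer females. It thus passed the filter largely through the group where it was high, and its p is a description, not independent support. Whether the calls of this list are independent of each other was not tested. With the share of miR-2887 and miR-2904 as a covariate, edgeR called 1 of 180 entries in this contrast. Blood cell markers summed to 192.2 to 3653 CPM in nuclear transfer males and 113 to 4377 in females, with 0 of 5 tested called by edgeR or DESeq2 and 0 at an unadjusted p under 0.05. Muscle markers summed to 39.4 to 16896 CPM in males and 11.3 to 2324 in females, with 0 of 2 called by either tool and 0 at an unadjusted p under 0.05. Neuronal markers had 2 of 3 names in the table and summed to between 0 and 1561 CPM over the 28 libraries, 0 of them passing the filter within nuclear transfer. Over 28 libraries both passed it, and both were lower in nuclear transfer than in IVF (miR-124a -6.57, miR-124b -5.88, adjusted p = 0.0466 each by edgeR). That makes 2 of the 3 edgeR calls of that comparison (1.25% of 240 entries), against 0 by DESeq2. Totals of miR-124a and miR-124b were 250 and 125 counts. Their group means kept the same proportion in all groups with a count, so the 2 calls are 1 signal, not 2 independent ones. Those means were 311.7 and 155.9 CPM in IVF males and 171.6 and 85.8 in IVF females. The 2 markers summed to at most 22.5 CPM in nuclear transfer females and 0 in nuclear transfer males. Both thus passed the filter of 82.8 CPM through libraries of the other types, where they were high. Their p is a description, not independent support. In IVF males the sum had a median of 0 and a highest value of 1403 CPM, and in IVF females 60.4 and 1561. No listed marker found in the table was at 0 in all 28 libraries. The part of these cell types in the family's levels was not tested.

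Among the other tested entries, let-7b and miR-3596, which have the same counts in every library, were most like miR-34c over the 28 libraries (Pearson's r of log2 CPM 0.85), followed by miR-10a (0.83). The let-7 miRNAs are known to build up as cells differentiate. After each group's mean was removed, r was 0.79 for let-7b and 0.75 for miR-10a. Entries named here were picked by likeness over these same libraries, group differences included. Their sex differences are therefore descriptions, not independent support. Within nuclear transfer, where edgeR called 22.2% of 180 entries and 8.89% as lower in males, let-7b fell in males by a log2 value of 2.35 (SE 0.57, adjusted p = 0.0128 by edgeR). There miR-10a fell by 2.40 (SE 0.58, adjusted p = 0.0128 by edgeR). The entries most like miR-449a were miR-30f (0.62, and 0.39 after each group's mean was removed), miR-2285o (0.61 and 0.44) and miR-95 (0.60 and 0.51). Of these, miR-30f fell in nuclear transfer males by 2.42 (SE 0.72, adjusted p = 0.0266 by edgeR), whereas miR-95 at -1.59 (adjusted p = 0.0672) and miR-2285o at -1.52 (adjusted p = 0.141) did not pass. The correlation of miR-34c with miR-449a was 0.57. For miR-34c, 32 entries were closer than miR-449a, and for miR-449a, 6 were closer than miR-34c by the same measure.

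**Figure D5:**
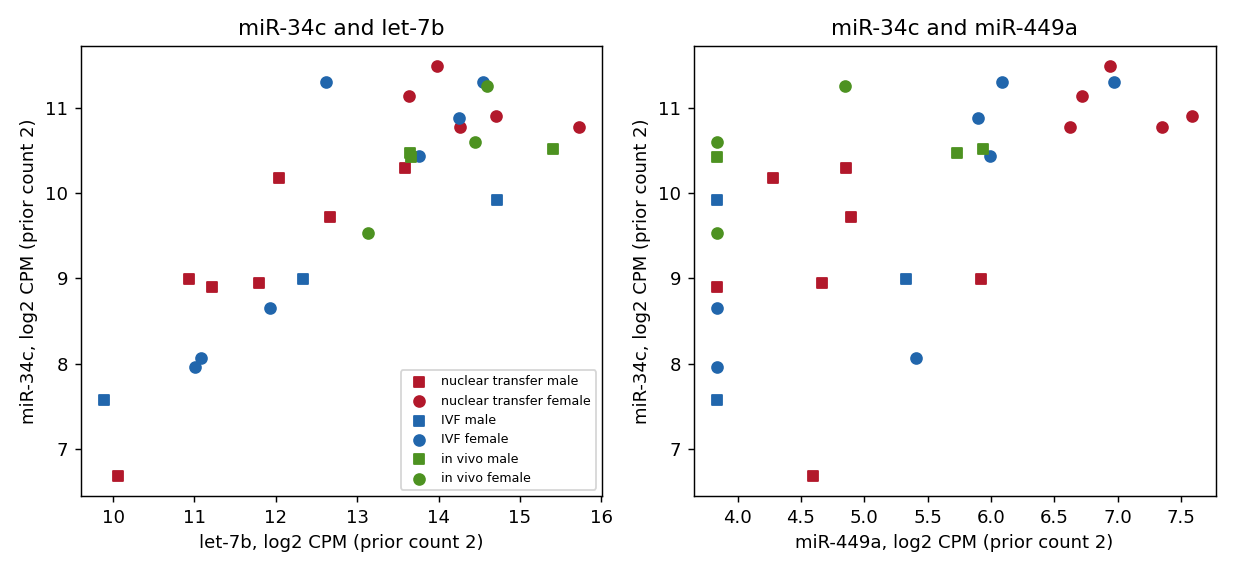
Log2 CPM of miR-34c (vertical axis) against let-7b (left) and miR-449a (right), with 1 point for each of 28 EV libraries. The points follow let-7b (r = 0.85) more closely than miR-449a (r = 0.57), for which libraries without a count line up at the left edge.

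Other miRNAs tied to p53 were listed for comparison: miR-192, miR-194, miR-215, miR-143, miR-145, miR-107, miR-15a, miR-16a and miR-16b. In human cells p53 is known to raise miR-192, miR-194, miR-215 and miR-107 and to aid the processing of miR-143, miR-145 and miR-16. Of these 9 entries, 7 passed the filter over 28 libraries and 0 were called by edgeR or DESeq2 in any comparison. At an unadjusted p under 0.05 there were 2, both for IVF minus in vivo. Their median log2 difference was 0.55 for nuclear transfer minus in vivo, against 0.15 over all tested entries, and 0.73 for IVF minus in vivo, against 0.01. For nuclear transfer minus IVF it was -0.14, against 0.06. Within nuclear transfer, 5 of 6 tested had a positive male minus female difference with a median of 0.47, against 0.05 over all, the opposite sign to miR-34c. Of all 180 entries tested there, 48.9% had a negative difference. The smallest p within nuclear transfer was that of miR-107 (1.01, SE 0.51, adjusted p = 0.150 by edgeR), which did not pass. Within IVF 5 of 6 were also positive (median 0.26, against -0.17 over all, with 65% of entries negative). Within in vivo 1 of 5 was positive (median -0.55, against 0.06 over all, with 44.8% of entries negative).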

How the data were processed

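For 28 EV libraries the authors deposited raw counts of reads per miRNA entry. Per the submitters' processing notes, genome build ARS-UCD1.2 was used, with Bowtie, STAR, cutadapt, featureCounts and DESeq2 among the tools, with roles and versions not given in these sources. Groups came from sample titles. The counts were fitted with edgeR 4.0.16 in R 4.3.3 (TMM scaling, filterByExpr with minimum count 10 and minimum total 15, quasi-likelihood F test, two-sided, Benjamini-Hochberg adjustment over all entries tested, threshold 0.05). One fit of 6 group means gave the comparisons of types, sexes and their interaction, and 3 fits gave the sexes within each type (180 nuclear transfer, 200 IVF and 154 in vivo entries tested). A type contrast averages the male and the female difference. Log2 CPM used a prior count of 2. Standard errors came from the fold and its F statistic. The members and the lists of other miRNAs were chosen with earlier results of these data known, and the test of miR-449a within nuclear transfer was added after seeing the data. All 6 members are named, and for each tested member the 3 most correlated entries, and from a list at most 3 by smallest p. Alternatives were DESeq2 1.42.0, its size factors in edgeR, no filter, counts without miR-2887 and miR-2904, a replicate block, that share as a covariate, and each library left out. Scripts were tested on simulated data. No miRNA sequences or coordinates were used here. Of 61 pairs of libraries within a group, none agreed within sampling noise (chi-square per degree of freedom 33.6 or more).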

Additional observations from a re-analysis of the deposited data

Results flagged for a closer look

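In 7 of 16 sets of libraries looked at, 1 per member and group of 4 to 10 libraries, the highest library stood apart from the others by a large part of the group's range. For normally spread values the rule is set to mark about 1 set in 20. That rate does not hold here, since most of these sets hold few counts and many zeros, so a handful of reads is enough. Where only 1 library of a set has a count, the rule always marks it. IVF female replicate 3 stood apart for 3 members. It had 107.3 CPM of miR-34a (16 counts; next library 45.5 CPM), 60.4 CPM of miR-34b (9 counts; next 22.7 CPM) and 13.4 CPM of miR-449b (2 counts; all other IVF females at 0). Nuclear transfer male replicate 4 had 46.2 CPM of miR-449a (6 counts), against 15.4 CPM in the next male, and stayed below every nuclear transfer female. Nuclear transfer female replicate 1 had 26.997 CPM of miR-449b (2 counts) with the other 4 libraries at 0. For miR-449c, nuclear transfer female replicate 5 had 9.11 CPM (1 count) and IVF female replicate 7 had 11.3 CPM (2 counts). No set of miR-34c was marked in this way.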

How the results depend on the processing

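Calls over all entries moved with the method. Nuclear transfer against in vivo had 1 call, against 0 by DESeq2, 6 without the filter, 6 with the replicate block and 0 to 5 with 1 library left out. IVF against in vivo had 0, against 13 by DESeq2, 6 without the filter and 0 to 21 with 1 library left out. Nuclear transfer against IVF had 3, against 0 by DESeq2, 5 without the filter, 0 without miR-2887 and miR-2904, 0 with their share as covariate and 0 to 4 with 1 library left out. Males against females within nuclear transfer had 40, against 63 without the filter, 1 with the covariate, 20 from the fit of 28 libraries and 16 to 50 with 1 library left out. The sex contrast over types, the interaction and the fits within IVF and in vivo had 0 calls in every alternative run. Replicate numbers showed no sign of pairing the libraries. Deviations of same-numbered libraries correlated from -0.629 to 0.687 (median 0.01), with 20 of 53 pairs over 0.1. Libraries with other numbers correlated from -0.67 to 0.672 (median 0.002), with 102 of 264 pairs over 0.1. The replicate block gave miR-34c -1.83 in the fit of nuclear transfer libraries alone (adjusted p = 0.0811 by edgeR). In the fit of 28 libraries it took miR-449a within nuclear transfer to an adjusted p of 0.0664 by edgeR.

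For the members, 3 differences changed sign, none of them called. Nuclear transfer minus in vivo of miR-34c became 0.15 with the covariate. IVF minus in vivo of miR-449a ran from -1.29 (without IVF male replicate 2) to 1.95 with 1 library left out, and male minus female of miR-34c within in vivo from -0.39 to 0.23. The call of miR-449a within nuclear transfer was lost with DESeq2-style size factors (adjusted p = 0.0574 by edgeR), in the fit of 28 libraries without the filter (0.0545) and without miR-2887 and miR-2904 (0.0533). Scaling by library total moved the in vivo male mean of miR-34c to 1713 CPM, against 1401. The causes were not tested. Depth limits the other 4 members to pooled counts.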
